A study of Sus scrofa with 12 samples.

Results

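Skeletal muscle is a main source of heat in newborn pigs, and 7 genes of muscle heat production and of the switch to fatty acid fuel were followed here over the first 3 weeks of life. They are the uncoupling proteins UCP3 and UCP2, the calcium pump regulator SLN, the kinase PDK4, the coactivator PPARGC1A and the nuclear receptors PPARA and PPARD. All probe sets whose gene symbol in the array's probe table is one of these names were taken, which gave 12 probe sets of 23999 that are not controls, for 7 of the 6765 genes that carry a symbol of their own there. A probe set is a group of short probes on the array that together read 1 transcript, with a brightness that grows with the RNA bound to them. The 12 Affymetrix porcine arrays came from skeletal muscle at 4 ages, of which day 0 means the 24 hours after birth and the others are days 7, 14 and 21, with 3 biological replicates per age. The ages differed in no treatment or genotype that the labels name, and the labels name no muscle, breed or sex. The question was which genes change in muscle after birth, and when. Values are MAS5 signals, a linear brightness, and differences are log2 differences ± SE from limma with n = 3 arrays per age, with p-values adjusted by Benjamini-Hochberg over 14399 probe sets. A change was called at an adjusted p under 0.05. Precision is limited by the number of arrays, and each p-value reflects only how these samples spread.

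Uncoupling proteins sit in the inner mitochondrial membrane. UCP1 makes heat in brown fat by letting protons back across that membrane, and in pigs its gene is known to be disrupted, so that piglets depend on shivering and on muscle. UCP3 is the form found mostly in muscle and UCP2 a form found in many tissues. Both are known to rise with fatty acid supply in rodents, and neither is a settled source of heat. Sarcolipin (SLN) binds the sarcoplasmic reticulum calcium pump SERCA and lets it burn ATP without moving calcium, which releases heat. PPARA and PPARD are receptors for fatty acids that switch on genes of fat burning, UCP3 and PDK4 among them, with PPARGC1A as coactivator. PDK4 phosphorylates and shuts off the pyruvate dehydrogenase complex, which spares glucose while fat is burned.

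Measures of the arrays and of other cells moved with age and bear on every comparison with day 0. Spiked-in poly-A RNAs report on labelling quality through the log2 ratio of their 3′ to their 5′ probe sets. This ratio was 0.06 to 0.49 in the later arrays and 0.52, 1.49 and 0.51 in day 0 replicates 1, 2 and 3. Hybridization controls, RNAs added in fixed amount, gave a mean log2 signal of 12.4 to 12.8 in the later arrays and 12.1 to 12.3 at day 0. The median log2 difference of all tested probe sets between day 21 and day 0 was 0.02, and -0.36 when the arrays were scaled on these controls. Of all tested probe sets 952 (6.61%) were called higher and 705 (4.9%) lower at day 21 than at day 0, and 397 higher and 2486 lower with that scaling. Of 8 tested muscle fibre markers 5 rose between day 0 and day 21 and 0 were called lower. The summed signal of the 8 was 315343 to 392476 at day 21 and 183718 to 257149 at day 0. MYH2, a myosin in that sum, averaged 55673 at day 21 and 9270.3 at day 0. DES had a lower mean at day 21 (17438.1) than at day 0 (22896.3). Of 7 leukocyte markers 3 rose (LAPTM5, CTSS and CD74) and 0 were called lower. The summed signals of the 7 were 3993 to 6242.2 at day 21 and 1902 to 3017.6 at day 0. The macrophage marker CD163 had a lower mean at day 21 (297.2) than at day 0 (507.1), as did CD14 (92.2 and 100.3), so the list did not move as 1. Of 7 endothelial markers CDH5 and CLDN5 rose and ENG fell, with summed signals of 5730.8 to 8506.4 at day 21 and 4734.8 to 5745.1 at day 0. Of the adipocyte markers 0 of 3 tested passed, at summed signals of 3375.6 to 4216.7 at day 21 and 2687.9 to 4291.8 at day 0, and the defining markers CIDEA and ADIPOQ were too dim to test. The part of these measures in the results below was not tested. In whole muscle, fewer cells of a type and less RNA per cell cannot be told apart.

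UCP3 rose after birth and SLN rose by less, while PDK4, PPARGC1A, PPARA and PPARD gave no call at day 21 and UCP2 was too dim to test. Of the 12 probe sets 8, from 6 genes, were bright enough for testing, with a mean signal above 90.3. Between day 21 and day 0, 2 of the 8 were called, both higher, where 11.5% of all tested probe sets were called and 6.61% were called higher. Between day 14 and day 0, 3 of 8 were called, all higher, beside 12.3% of all and 6.74% higher. These 3 were both UCP3 probe sets and SLN, so they stand for 2 of the 6 genes. Between day 7 and day 0, 1 of 8 was called, higher, beside 9.4% of all and 5.76% higher. Between day 14 and day 7 limma called 0 of 8, beside 0.00694% of all, with 1 at an unadjusted p under 0.05, beside 5.95% of all. Between day 21 and day 14 it called 0 of 8, beside 0% of all, with 0 at an unadjusted p under 0.05, beside 3.03% of all. The F test over the ages called 2 of 8, beside 8.88% of all. Comparisons with day 0 share the day 0 arrays. The median log2 difference of the 8 probe sets between day 21 and day 0 was -0.09, beside 0.02 over all tested.

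**Figure D1:**
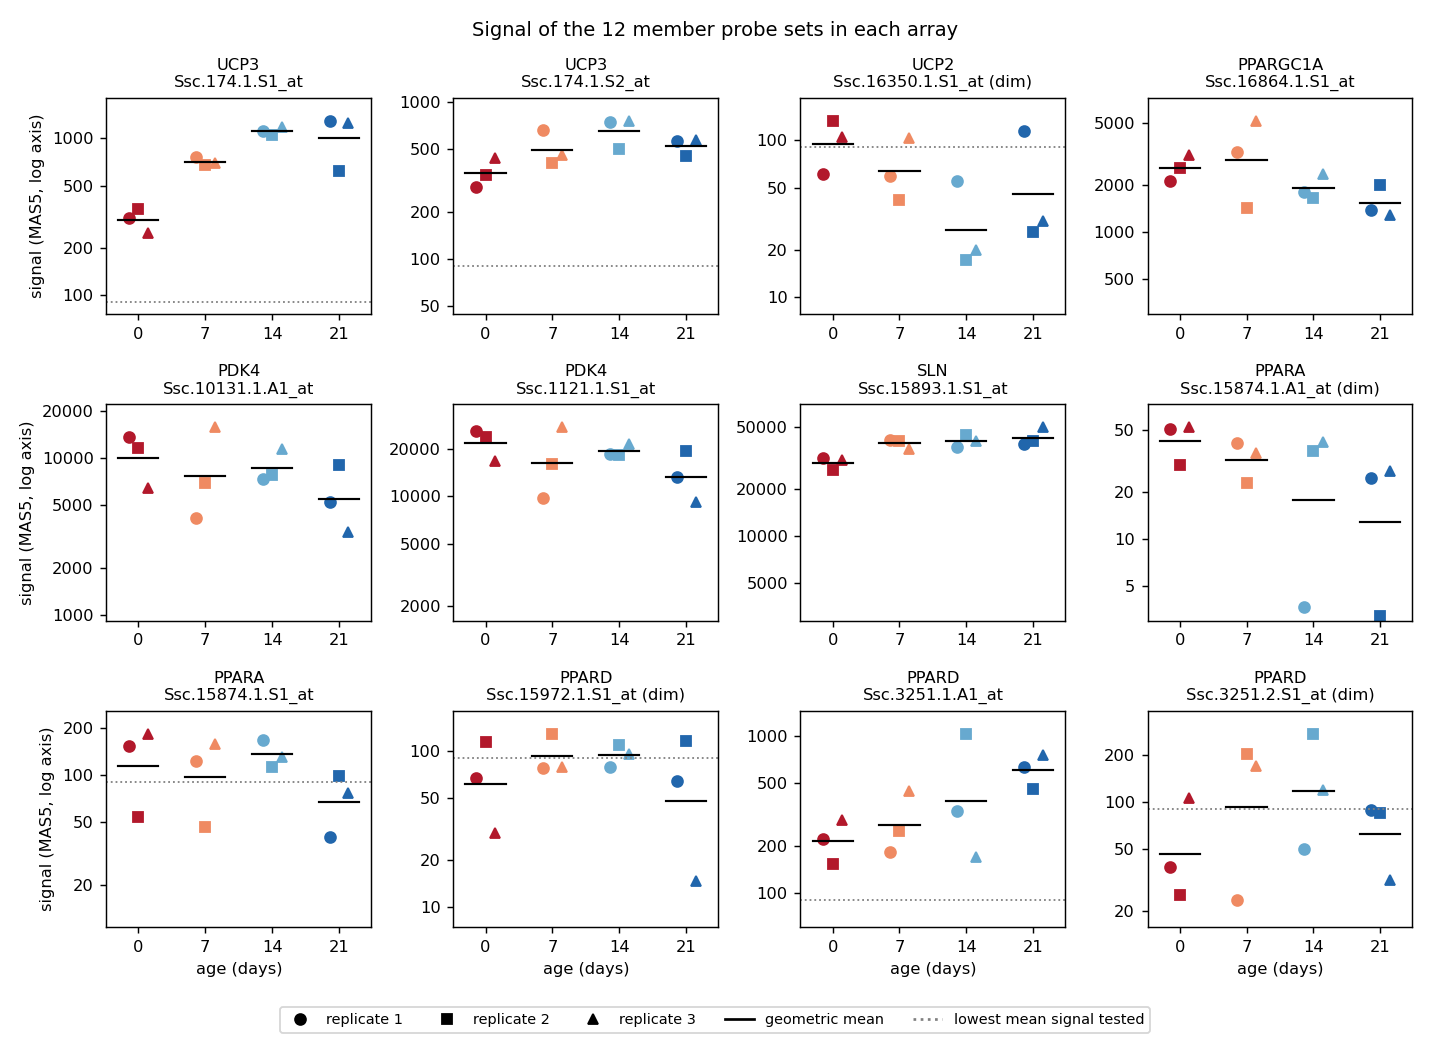
Signal of the 12 probe sets of the 7 genes in each of the 12 arrays (MAS5 signal, log axis, every panel spanning the same number of folds) against age in days. Points are arrays, bars geometric means of 3 arrays and the dotted line the lowest mean signal tested (90.3); the UCP3 probe set ending in S1 and SLN are higher at every later age than at day 0, and PDK4 and PPARGC1A spread most at day 7.

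UCP3 is read by a pair of probe sets, called S1 and S2 here after the end of their identifiers. The larger change came from S1. Its signals were 309.1, 355.7 and 250.6 at day 0 and 759.2, 676.2 and 697.6 at day 7. They were 1107.6, 1057 and 1185.7 at day 14 and 1295.3, 621.6 and 1255.5 at day 21. The day 0 and day 7 arrays did not overlap, nor did those of day 7 and day 14, while day 21 held 2 arrays above all of day 14 and 1 array below all of day 7. The signal averaged 1057.5 ± 378.0 at day 21 and 305.1 ± 52.7 at day 0 (SD, n = 3 each), a log2 difference of 1.73 ± 0.25 or 3.32-fold (adjusted p = 0.00159). The difference was 1.88 ± 0.25 between day 14 and day 0 (3.69-fold, adjusted p = 0.00135) and 1.23 ± 0.25 between day 7 and day 0 (2.35-fold, adjusted p = 0.0115). Of the later steps, day 14 against day 7 gave 0.65 ± 0.25 (adjusted p = 0.782) and day 21 against day 14 gave -0.15 ± 0.25 (adjusted p = 1).

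For UCP3 S1 the step of the first week exceeded that of the third week by 1.39 ± 0.36, which missed the threshold over all probe sets (unadjusted p = 0.00185, adjusted p = 0.0835). In this test 0 of 8 probe sets of the group were called by limma, beside 0.889% of all, with 2 at an unadjusted p under 0.05, beside 16.9% of all. The rise of this probe set at day 21 was called in 23 of 23 alternative settings (1.35 to 2.08) and that at day 14 in 23 of 23. The day 7 call was lost with the poly-A ratio as a covariate (1.43, adjusted p = 0.0563) and held in the other 22.

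The other UCP3 probe set, S2, gave a smaller change. Its signals were 286.5, 341.6 and 440.4 at day 0, 663.2, 405.8 and 458.4 at day 7, 750.8, 501.2 and 759.6 at day 14, and 565.9, 453 and 572.8 at day 21. Every array of days 14 and 21 was above every array of day 0, and those of day 7 overlapped with day 0. The log2 difference was 0.91 ± 0.25 between day 14 and day 0 (1.88-fold, adjusted p = 0.0303). It was 0.59 ± 0.25 between day 21 and day 0 (95% interval 0.06 to 1.12, adjusted p = 0.141) and 0.51 ± 0.25 between day 7 and day 0 (adjusted p = 0.223). The call at day 14 held in 15 of 23 alternatives and was lost without day 0 replicate 1, day 0 replicate 2, day 14 replicate 1 or day 14 replicate 3, and with hybridization control scaling (0.54, adjusted p = 0.15). The poly-A ratio as a covariate (0.81, adjusted p = 0.211), array weights and only the 6 arrays compared also ended it.

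The readings of UCP3 by its probe sets were also set against each other, a ratio chosen after the values were seen and given with no test. The log2 ratio of S1 over S2 was 0.73 ± 0.34 in the 9 later arrays (SD, range 0.20 to 1.19) and -0.22 ± 0.52 in the 3 day 0 arrays (SD, range -0.81 to 0.11). The means differed by 0.95, and the ranges did not overlap. The poly-A ratio was 0.52, 1.49 and 0.51 in day 0 replicates 1, 2 and 3, and at most 0.49 in the later arrays. The lowest ratio of S1 over S2 (-0.81) was that of day 0 replicate 3. The part of the poly-A ratio in the ratio of S1 over S2 was not tested. For the PDK4 pair of probe sets the same difference was -0.06.

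UCP2 was dim. Its signals were 60.7, 133.5 and 105.5 at day 0, 59.2, 41.8 and 104.3 at day 7, 54.8, 17.2 and 20.1 at day 14, and 115.5, 26.2 and 30.8 at day 21. All 3 day 14 arrays were below the day 0 arrays, and those of days 7 and 21 overlapped with day 0. With no filter on brightness the log2 difference was -1.83 ± 0.70 between day 14 and day 0 (unadjusted p = 0.02, adjusted p = 0.148) and -1.07 ± 0.70 between day 21 and day 0 (adjusted p = 0.441), so no change of UCP2 was shown at this brightness. In the RefSeq annotation of assembly Sscrofa11.1, UCP2 and UCP3 lie on the same chromosome with the start of 1 annotated gene between them.

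**Figure D2:**
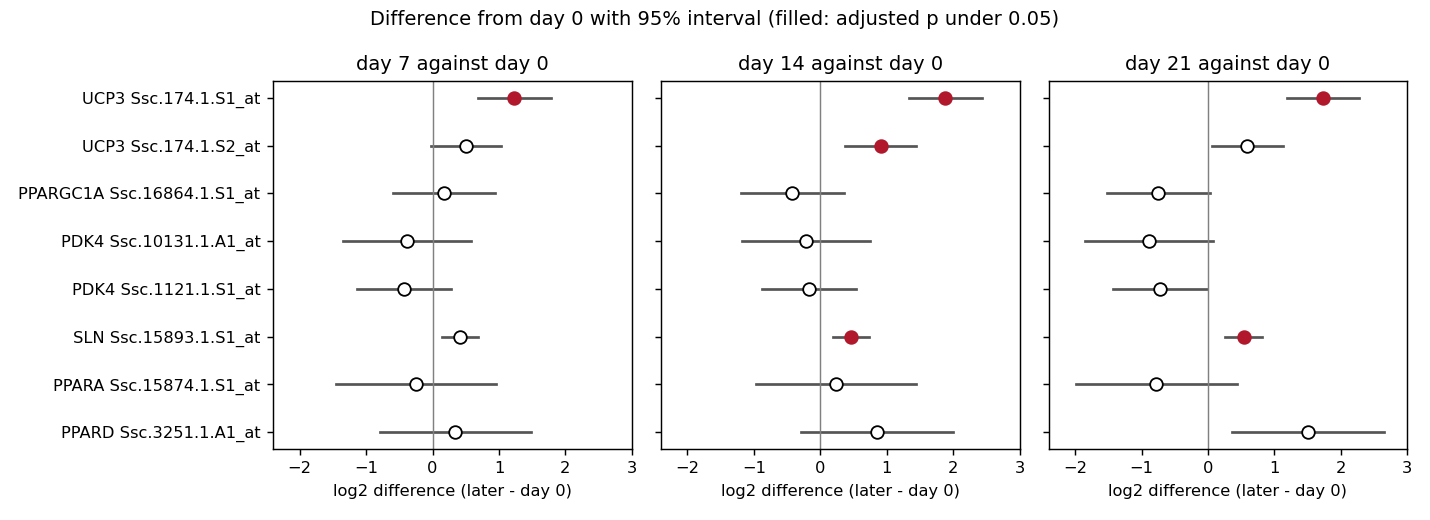
Log2 differences of the 8 tested probe sets from day 0 at days 7, 14 and 21, with 95% intervals from limma (n = 3 arrays per age). Filled points passed an adjusted p of 0.05; UCP3 S1 lies above 0 at all 3 ages (1.23, 1.88 and 1.73), and the intervals of PPARGC1A and PPARA cross 0 at all 3 ages, as do those of PDK4 apart from its S1 probe set at day 21.

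SLN, the heat-releasing regulator of the calcium pump, was higher in every array after day 0. Its signals were 31485.8, 26556.9 and 30575.4 at day 0, 41199.2, 40486.6 and 36083.8 at day 7, 37358.7, 44092 and 40327.6 at day 14, and 38915.7, 40403.4 and 49634.6 at day 21. The lowest later array (36083.8) stood above the highest day 0 array (31485.8). SLN averaged 42985 ± 5807 at day 21 and 29539 ± 2623 at day 0 (SD, n = 3 each), a log2 difference of 0.54 ± 0.13 or 1.45-fold (adjusted p = 0.0175). The difference was 0.46 ± 0.13 at day 14 (adjusted p = 0.0325) and 0.41 ± 0.13 at day 7 (adjusted p = 0.0601), each against day 0. Later ages did not differ past the threshold, at 0.05 ± 0.13 between day 14 and day 7 and 0.08 ± 0.13 between day 21 and day 14.

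The SLN change was small, and its call depended on the setting. At day 21 it held in 15 of 23 alternatives. Leaving out day 0 replicate 2 ended it (0.46, adjusted p = 0.0587), as did leaving out day 21 replicate 3 (0.43, adjusted p = 0.078). It was also lost with quantile normalization (0.27, adjusted p = 0.18) and with hybridization control scaling (0.16, adjusted p = 0.303). The poly-A ratio as a covariate ended it too (0.46, adjusted p = 0.0943), as did no filter, no variance trend and only the 6 arrays compared. The difference at day 21 stayed above 0 in all 23. The day 14 call held in 10 of 23 (0.09 to 0.52, adjusted p = 0.022 to 0.56). In the F test over the ages SLN passed with all arrays (adjusted p = 0.0488), in 2 of 22 alternatives and in 0 of the 12 that left out 1 array. The within-age SD of SLN was 0.14 on the log2 scale, at the 11.2th percentile of the 3401 probe sets with a mean signal of at least 1000. Its mean log2 signal was at the 99.8th percentile of all probe sets that are not controls. Whether signals this bright still follow the amount of RNA in proportion was not tested.

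The calcium pump and the proteins around it changed in part. Of 13 listed genes 8 were tested, and between day 21 and day 0 3 were called higher and 1 lower. Of all tested probe sets 6.61% were called higher and 4.9% lower. The median of the 8 was 0.53, beside 0.02 over all tested. Of the 3 rises, that of ATP2A2 was not repeated by the other tested probe sets of the gene, as given below. CALM2, a gene for the calcium sensor calmodulin, rose by 1.30 ± 0.17 (adjusted p = 0.00104), with signals of 6867.8 to 8889.7 at day 21 and 2820.5 to 4285.7 at day 0. RYR1, the calcium release channel of skeletal muscle, rose by 0.90 ± 0.19 (adjusted p = 0.00872), at 12744.9 to 17176.2 at day 21 and 6951.4 to 8744 at day 0. CASQ2, the calcium store protein calsequestrin of slow and cardiac muscle, fell by 1.90 on the log2 scale (SE 0.40, adjusted p = 0.00912), at 476 to 1380.8 at day 21 and 1660.9 to 4793.3 at day 0.

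The pump itself and another of its small regulators, named after their values were seen, gave less clear readings. ATP2A2, the slow-muscle SERCA pump, was called higher by its brightest probe set (0.78 ± 0.23, adjusted p = 0.0402), a call that held in 6 of 23 alternatives. The other 3 tested ATP2A2 probe sets gave 0.05, -0.46 and -0.07, with adjusted p of 0.93, 0.57 and 0.908, so the probe sets of this gene did not give the same reading. ATP2A1, the pump of fast fibres, gave 0.29 ± 0.24 (adjusted p = 0.469), and PLN, a pump inhibitor best known from heart, 0.92 ± 0.43 (adjusted p = 0.183). MRLN, a small inhibitor of SERCA known from mouse muscle, passed the F test over the ages (adjusted p = 0.0452) with signals of 72.4 to 199.6 at day 7 and 357 to 747.8 at day 14. That call held in 6 of 22 alternatives, and in 1 of the 12 that left out 1 array. Its difference between day 21 and day 0 was 0.26 ± 0.40 (adjusted p = 0.726), and its sign turned with hybridization control scaling and without day 21 replicate 1.

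PDK4, the brake on pyruvate dehydrogenase, varied widely between arrays of the same age and was not called at any age. Its S1 probe set gave 26047.1, 24035.8 and 16936.5 at day 0, 9786, 16031.8 and 27616.3 at day 7, 18787.3, 18379 and 21771.4 at day 14, and 13228.4, 19542.1 and 9210.2 at day 21. Day 7, day 14 and day 21 each overlapped with day 0. The log2 difference between day 21 and day 0 was -0.72 ± 0.33 (95% interval -1.43 to -0.01, adjusted p = 0.176). The second probe set, A1, gave 13633, 11567.4 and 6431 at day 0, 4138.3, 6946.3 and 15704.7 at day 7, 7353.4, 7793.2 and 11403.6 at day 14, and 5264.6, 9056 and 3376.5 at day 21. It differed by -0.89 ± 0.45 between day 21 and day 0 (95% interval -1.85 to 0.08, adjusted p = 0.22).

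The PDK4 spread was shared by both its probe sets, which followed each other to within a root mean square difference of 0.19 over the 12 arrays after centring. Their within-age SDs of 0.69 (A1) and 0.50 (S1) were at the 97.1st and 91.8th percentiles of the 3401 probe sets of that brightness. At day 7 the highest array was 3.79 times and 2.82 times the lowest, and replicate 3 was the highest by both.

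The other genes of pyruvate entry gave no call at day 21 and 1, MPC2, at days 7 and 14. Of 12 listed genes of the complex, its kinases, its phosphatases and the pyruvate carrier, 8 were tested and limma called 0 between day 21 and day 0, beside 11.5% of all, with 2 at an unadjusted p under 0.05, beside 27.6% of all. Their median was 0.15, beside 0.02 over all tested. PDK3, another kinase of the complex, had the largest difference at 1.04 ± 0.38 (adjusted p = 0.0977), and MPC2, a subunit of the mitochondrial pyruvate carrier, gave -0.37 ± 0.13 (adjusted p = 0.0706). MPC2, which is named here after its values were seen, was called lower at day 14 (-0.47 ± 0.13, adjusted p = 0.0275) and day 7 (-0.49 ± 0.13, adjusted p = 0.0314), each against day 0. The calls held in 14 of 23 alternatives at day 14 and 13 of 23 at day 7, and both were lost with no filter, no variance trend, the replicate block, the poly-A ratio as a covariate, only the 6 arrays compared, or without day 0 replicate 3. Each was also lost without any 1 of that age's own arrays, and the day 7 call without day 0 replicate 2.

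PPARGC1A, the coactivator that drives mitochondrial genes, had its lowest mean signal at day 21. Its signals were 2119.1, 2563.3 and 3108.6 at day 0, 3268.3, 1430.5 and 5152.3 at day 7, 1809.3, 1660.4 and 2340.9 at day 14, and 1382.2, 1994.9 and 1296.7 at day 21. All 3 day 21 arrays were below the lowest day 0 array. The log2 difference between day 21 and day 0 was -0.75 ± 0.36 (95% interval -1.52 to 0.03, adjusted p = 0.197), which did not pass the test. Between day 7 and day 0 it was 0.17 ± 0.36 (adjusted p = 0.815), with a 3.60-fold spread among the day 7 arrays. Day 7 replicate 3 was the highest of all 12 arrays for PPARGC1A, as it was for both PDK4 probe sets. Without day 7 replicate 2, the lowest at that age, the F test over the ages was passed (adjusted p = 0.0292, against 0.282 with all arrays).

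PPARD, the fatty acid receptor most abundant in muscle, had 1 probe set of 3 bright enough to test. This one, A1, gave 221.2, 152.6 and 293.5 at day 0, 181.7, 248 and 450.4 at day 7, 331.6, 1036 and 170.4 at day 14, and 639.1, 462.1 and 763.6 at day 21. The day 21 arrays were all above the day 0 arrays, and the day 14 arrays spanned 6.08-fold. The log2 difference between day 21 and day 0 was 1.50 ± 0.53 (2.83-fold, 95% interval 0.36 to 2.64), with an adjusted p of 0.0827. At the same difference it passed in 3 of 23 alternatives. These were the fits without day 14 replicate 2 (adjusted p = 0.0259), without day 14 replicate 3 (adjusted p = 0.0448) and to only the 6 arrays compared (adjusted p = 0.033). The dim probe sets did not repeat it, at -0.35 ± 0.70 and 0.41 ± 0.86 between day 21 and day 0 (adjusted p = 0.843 and 0.855 with no filter).

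PPARA, the receptor best known from liver and heart, was near the limit of brightness. Its tested probe set gave 154.7, 54.2 and 183.7 at day 0, 123.7, 46.8 and 158.6 at day 7, 168.6, 113.8 and 131.1 at day 14, and 40.3, 99.2 and 76.7 at day 21. Day 21 overlapped with day 0, and its arrays were all below those of day 14. The log2 differences were -0.78 ± 0.56 between day 21 and day 0 (adjusted p = 0.402) and -1.01 ± 0.56 between day 21 and day 14 (adjusted p = 1). The other PPARA probe set lay between 3.2 and 51.6 in all arrays and was not tested.

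Between day 21 and day 0, 5 of the 8 tested probe sets had ranges that did not overlap, 4 higher and 1 lower, where 29.1% of all tested probe sets did. The 4 were both UCP3 probe sets, SLN and PPARD, and the 1 was PPARGC1A. At an unadjusted p under 0.05 there were 5 of the 8, the 4 higher ones and PDK4 S1, beside 27.6% of all tested.

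Of the partners of these receptors 1 was called. Of 16 listed receptors, coactivators and corepressors 9 were tested, and between day 21 and day 0 1 rose and 0 fell, beside 11.5% of all tested probe sets called, with a median of -0.01. RXRG, the retinoid X receptor form of muscle with which PPARs pair, rose by 1.66 ± 0.42 (3.16-fold, adjusted p = 0.0228). Its signals were 718.5, 445.3 and 1280.9 at day 21 and 145.1, 201.4 and 443.2 at day 0, so the lowest day 21 array stood just above the highest day 0 array. It was also higher at day 7 (2.14 ± 0.42, adjusted p = 0.00907) and day 14 (1.50 ± 0.42, adjusted p = 0.0338), each against day 0. The day 21 call held in 17 of 23 alternatives and was lost without day 0 replicate 1, day 0 replicate 2, day 21 replicate 1 or day 21 replicate 3 (adjusted p = 0.0633 to 0.0974), with the poly-A ratio as a covariate (1.57, adjusted p = 0.0977) and with only the 6 arrays compared (adjusted p = 0.0795). The day 14 call held in 14 of 23 and the day 7 call in 22 of 23, and the poly-A ratio as a covariate ended both (adjusted p = 0.218 and 0.0998). RXRB gave -0.63 ± 0.30 (adjusted p = 0.186) and PPARG, the fat cell receptor of the family, 0.87 ± 0.50 (adjusted p = 0.284).

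The genes of fatty acid use that PPARs are known to switch on did not move one way. Of 21 listed 16 were tested. Between day 21 and day 0 1 was called higher and 3 lower, beside 6.61% and 4.9% of all tested probe sets. The median was -0.15, beside 0.02 over all tested. ANGPTL4, a secreted inhibitor of lipoprotein lipase, rose by 1.67 ± 0.34 (3.19-fold, adjusted p = 0.00829), at 666.4 to 1248.6 at day 21 and 221.7 to 561.4 at day 0, and its second probe set gave 0.99 ± 0.29 (adjusted p = 0.0396). ACADVL, which starts the oxidation of very long fatty acids, fell by 0.66 on the log2 scale (SE 0.15, adjusted p = 0.0142), at 7446 to 9199.5 at day 21 and 11065.4 to 15785.3 at day 0. Its other probe set gave -0.34 ± 0.28 (adjusted p = 0.469). HADHA, a subunit of the trifunctional protein of fatty acid oxidation, fell by 0.61 (SE 0.16, adjusted p = 0.0254), while HADHB, its partner subunit, gave 0.13 ± 0.15 (adjusted p = 0.619).

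The third gene that fell, PLIN2, coats lipid droplets and gave -1.03 ± 0.26 (adjusted p = 0.0221). It is named because it completes the count, after its values were seen. Of 23 alternatives 17 kept the PLIN2 call. Array weights, the poly-A ratio as a covariate and the fit to only the 6 arrays compared each ended it. Replicate 1 of day 0 and replicates 2 and 3 of day 21 were each needed for it. PLIN2 did not pass the F test over the ages, except under hybridization control scaling (adjusted p = 0.0421), 1 of 22 alternatives. CPT1B, the muscle gate for fatty acids into mitochondria, gave -0.65 ± 0.22 (adjusted p = 0.0767). The ACADVL and HADHA falls were also called at day 7, at -0.98 ± 0.15 (adjusted p = 0.00238) and -0.71 ± 0.16 (adjusted p = 0.0166) against day 0. At day 14 ACADVL was called lower and HADHA was not (-0.87 to -0.30 over the settings), though 6 of 23 alternatives called HADHA. HADHA passed the F test over the ages (adjusted p = 0.0381). That call held in 7 of 22 alternatives, and in 1 of the 12 that left out 1 array. The HADHA call at day 21 held in 15 of 23 alternatives and was lost without day 0 replicate 2 or 3 or any 1 of the day 21 replicates. It was also lost with the poly-A ratio as a covariate (-0.46, adjusted p = 0.144), no variance trend and only the 6 arrays compared. The ANGPTL4 call at day 21 held in 23 of 23.

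**Figure D3:**
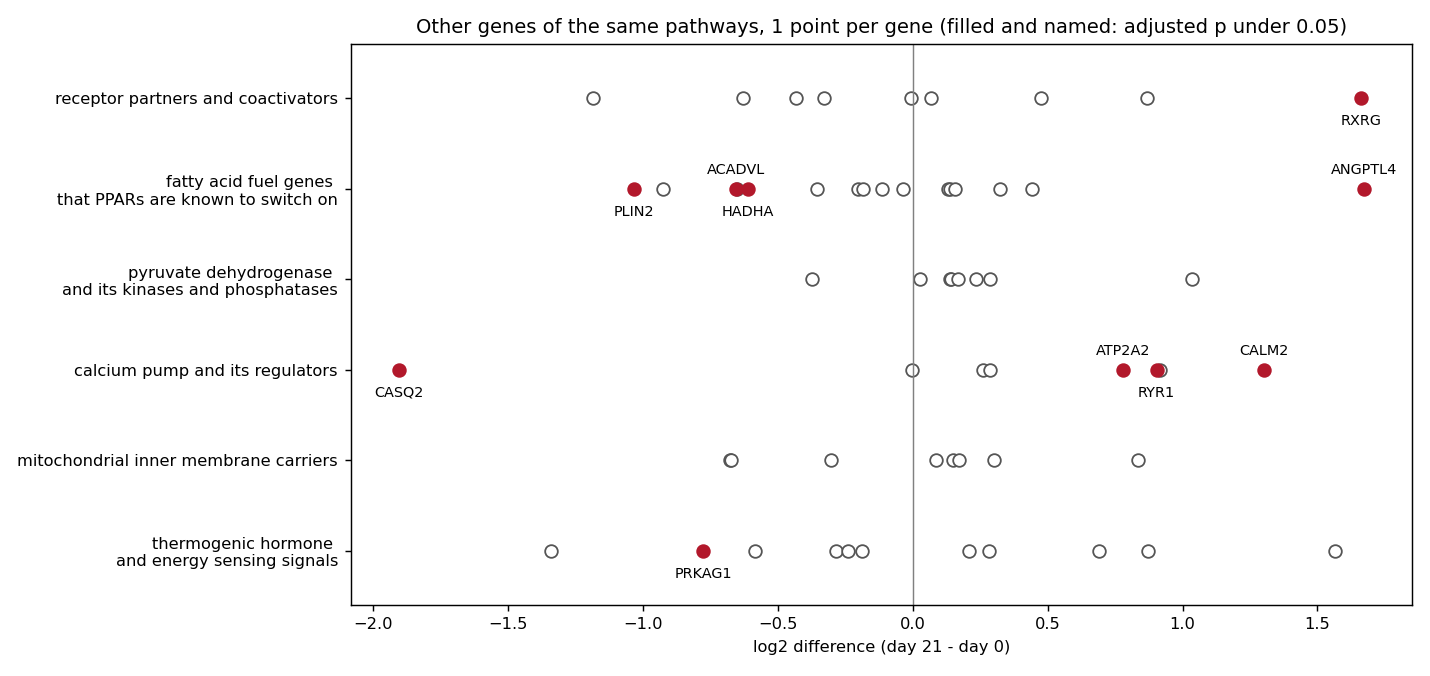
Log2 difference between day 21 and day 0 of the tested genes of 6 lists around the 7 genes, 1 point per gene (its brightest tested probe set). Filled, named points passed an adjusted p of 0.05, as did 11.5% of all tested probe sets. The calcium pump list holds 3 rises and CASQ2 at -1.90, the fatty acid list 1 rise and 3 falls, and 2 lists hold no call.

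Other mitochondrial carriers, the family that the uncoupling proteins belong to, had 8 genes tested of 11 listed. Limma called 0 of these between day 21 and day 0, beside 11.5% of all tested probe sets. At an unadjusted p under 0.05 there were 3, beside 27.6% of all, and the median was 0.12. SLC25A4, the ATP carrier of muscle, gave 0.17 ± 0.12 (adjusted p = 0.387), and SLC25A5, its form in dividing cells, -0.67 ± 0.24 (adjusted p = 0.0845). Of 18 listed hormone and energy sensing genes 11 were tested, with a median of -0.19 between day 21 and day 0. Limma called 1 of the 11, beside 11.5% of all tested probe sets. This was PRKAG1, a regulatory subunit of the energy sensor AMPK, which fell by 0.77 on the log2 scale (SE 0.16, adjusted p = 0.00904), at 846.9 to 1049.1 at day 21 and 1590.2 to 1744.3 at day 0. Its other probe set gave -0.60 ± 0.21 (adjusted p = 0.0874). The muscle subunit PRKAG3 gave 0.87 ± 0.34 (adjusted p = 0.116), and the thyroid hormone receptor THRB 1.57 ± 0.69 (adjusted p = 0.16).

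Genes whose pattern over the 12 arrays lay nearest to the called members were found by the root mean square difference between log2 signals, each centred on its own mean, among 5290 genes. For UCP3 S1 they were RDH14, a retinol dehydrogenase, at 0.28 and FAM210B, a mitochondrial membrane protein, at 0.29, where the median gene differed by 0.86. Their differences between day 21 and day 0 were 1.28 ± 0.29 for RDH14 and 1.49 ± 0.25 for FAM210B, and a second FAM210B probe set gave 1.65 ± 0.29. For SLN they were PCMT1, a protein repair enzyme, at 0.08 and BUD23, a methyltransferase of ribosome building, at 0.09, where the median gene differed by 0.42. The differences were 0.65 ± 0.15 for PCMT1 and 0.56 ± 0.14 for BUD23. A second PCMT1 probe set gave 0.62 ± 0.22, and a second BUD23 probe set -0.94 ± 0.18, so for BUD23 the likeness holds for the probe set named and not for every reading of the gene. The direction of each named probe set follows from its choice by likeness over the same arrays, and none of these differences is given with a test.

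**Figure D4:**
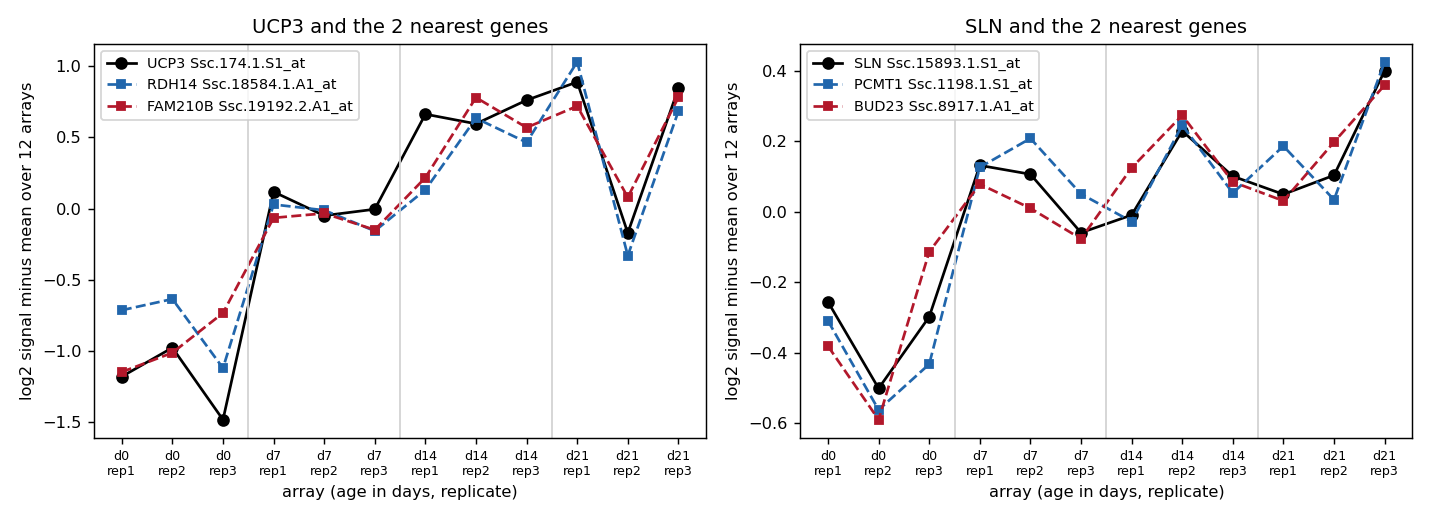
Centred log2 signals over the 12 arrays, ordered by age, of UCP3 S1 with RDH14 and FAM210B, and of SLN with PCMT1 and BUD23. Each line is 1 probe set centred on its own mean; the lines lie within a root mean square difference of 0.28 to 0.29 of UCP3 and 0.08 to 0.09 of SLN.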

How the data were processed

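Total RNA was extracted with Trizol and labelled with biotin, per the labels' protocols, and hybridised to 1 Affymetrix porcine array per sample. The authors deposited 1 intensity signal per probe set and array on a linear scale, from MAS5 (version not given in the sources used here), per the submitters' processing notes. All arrays shared a 2% trimmed mean of 500.1, and medians were 145.4 to 171.7. Detection calls were not used here.

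No normalization was added, and tests ran on log2 signals. Of 24123 probe sets 124 controls were left out, then the lowest 40% by mean log2 signal, which left 14399. Gene names came from the array's probe table (10099 probe sets with 1 symbol, 198 with several, 13826 with none), and the symbols of all 7 genes matched RefSeq by gene ID. UCP1 carries no symbol in that table. A limma model (version 3.58.1, R 4.3.3) gave every probe set a mean per age over all 12 arrays, moderated by eBayes with a trend, and was tested by an F test and by contrasts. The contrast of weeks is the step of the first week (day 7 minus day 0) minus that of the third week (day 21 minus day 14). A gene on a list stands by its brightest tested probe set.

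The members and lists were chosen with earlier results of these data known. The rule for named genes takes all member probe sets, up to 3 genes per list past the F test and the 2 genes nearest to each member past it; other list genes were named after their values were seen. No 2 arrays held identical values. Same-numbered replicates of different ages did not deviate together (median correlation -0.02 over 18 pairs, and 0.01 over 36 pairs of different numbers), so the numbers were not taken as pairs. On simulated data of this design with 14399 probe sets, 37 of 100 probe sets changed 2-fold and 84 of 100 changed 4-fold were recovered for day 21 against day 0, with 4 false calls. For day 21 against day 14 these were 29 and 77, with 5 false calls. For day 14 against day 7 they were 41 and 85, with 17 false calls, and for the contrast of weeks 15 and 54, with 4. The simulation gave a probe set the same spread at every age. The alternatives were other filters (none, or the lowest 60% left out), quantile normalization, median centring, hybridization control scaling (27 probe sets), an offset of 29.7 before the logarithm, the replicate block, array weights, no variance trend, the poly-A ratio as a covariate, a fit to the 6 arrays compared alone, and each array left out in turn. The plots used matplotlib 3.10.9 with numpy 2.4.6.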

Additional observations from a re-analysis of the deposited data

Results flagged for a closer look

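ACADVL, the enzyme that starts the oxidation of very long fatty acids, was the 1 gene of the pathway lists whose change in the first week differed from its change in the third week by the test of that difference. It was 1 of 16 tested genes of the fatty acid list, and the other pathway lists held 0, beside 0.889% of all tested probe sets called. The other ACADVL probe set is given above for day 21 against day 0 only, where it was not called. Its signals were 6895.6, 6307.8 and 6356.7 at day 7 and 11065.4, 12161.5 and 15785.3 at day 0, and 9199.5, 7446 and 7941.8 at day 21 and 8451.4, 7567.9 and 7765.5 at day 14. The day 7 arrays were all below the day 0 arrays, while day 21 and day 14 overlapped. The step of the first week minus that of the third week was -1.02 ± 0.21 on the log2 scale (limma, adjusted p = 0.042), and this call held in 8 of 22 alternatives (adjusted p = 0.024 to 0.174). It was lost without day 0 replicate 2 and without any 1 of the 9 later arrays.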

How the results depend on the processing

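Of the 8 tested member probe sets, the count called in the F test over the ages was 2, and it was 1 with no filter, quantile normalization, median centring, hybridization control scaling, no variance trend, array weights, the replicate block or the poly-A ratio as a covariate, and 1 to 2 when 1 array was left out. SLN lost this call in all 12 fits with 1 array left out, and the 2 without day 7 replicate 2 were UCP3 S1 and PPARGC1A. For day 21 against day 0 it was 2, and 1 with no filter, quantile normalization, hybridization control scaling, no variance trend or the poly-A ratio, and 1 to 3 when 1 array was left out. The 2 with only the 6 arrays compared were UCP3 S1 and PPARD. For day 14 against day 0 it was 3, 2 with no filter, quantile normalization, median centring, no variance trend or the replicate block, and 1 with hybridization control scaling, array weights, the poly-A ratio or only the 6 arrays compared, and 1 to 3 when 1 array was left out. For day 7 against day 0 it was 1, and 2 with the lowest 60% left out, 0 with the poly-A ratio, and 1 when any 1 array was left out. The counts of 0 for day 14 against day 7, day 21 against day 14 and the contrast of weeks stayed at 0 in every alternative run. MRLN turned sign between day 21 and day 0, to -0.12 with hybridization control scaling and -0.063 without day 21 replicate 1, and ran from -0.063 to 0.46 over the fits with 1 array left out.

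Over all probe sets the count called in the F test was 1278, and 124 with the poly-A ratio to 2105 with hybridization control scaling. For day 21 against day 0 it was 1657, and 590 with only the 6 arrays compared to 2883 with that scaling. For day 14 against day 0 it was 1777 (315 to 2950) and for day 7 against day 0 1353 (229 to 1994). For day 14 against day 7 it was 1 (0 to 3), and for the contrast of weeks 128, with 3 without day 7 replicate 2 and 468 without day 0 replicate 3. The causes were not tested. The replicate block, with numbers that did not pair the samples, left 1 member probe set called in the F test. Dim probe sets limit UCP2, PPARA and the other PPARD readings.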
